A study of Mus musculus with 18 samples.

Results

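Fusion isoforms are long reads whose splice chain joins exons of genes that the annotation lists separately. The deposited isoform table assigns each isoform a category, and all 768 isoforms of the category fusion, of 114425 isoforms in all, are described here over all 18 libraries. Their labels join gene names, and 577 labels reduced to 486 gene combinations once the order of the names was ignored. Of these, 480 combinations joined 2 genes and 6 joined 3 genes. Together they held 12152 of 10234812 reads (0.119%).

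The libraries were full-length cDNA of primary mouse brain cultures, sequenced on the PacBio platform. The 6 groups of 3 libraries each were astrocyte cells, microglia cells and neuron cells, and the small extracellular vesicles (sEVs, membrane-bound particles that cells release) of the same 3 kinds of culture. No treatment, genotype, strain or age is given in the labels, and the groups are distinguished there by cell type and fraction. All cell libraries were sequenced in 1 pool and all sEV libraries in another, so fraction and pool cannot be told apart. Nothing in the labels ties replicates to separate cultures, and the p-values below therefore measure only library-to-library spread, which may be technical. In a bulk library, fewer cells of a type and less RNA per cell cannot be told apart.

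Each library held 434298 to 683381 reads. The smallest value above 0 in the table is 2 reads, so a 0 may hide a single read, and a count of 0 allows up to 3 reads, or 4.39 to 6.91 RPM (reads scaled to a library total of 1000000). The labelled cell types matched their marker genes: the 8 neuron markers summed to 4476 to 5317 RPM in neuron cells, the 8 astrocyte markers to 22501 to 25622 in astrocyte cells and the 8 microglia markers to 5328 to 6115 in microglia cells. All 8 microglia markers were at 0 in the neuron libraries. Astrocyte markers summed to 2888 to 3186 RPM in neuron cells, with none at 0, and to 2661 to 3719 in neuron sEVs, with 2 of 8 at 0. Oligodendrocyte lineage markers, 7 of 8 of them in the table, summed to 4198 to 9084 in astrocyte cells.

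A read-through transcript arises when RNA polymerase passes the end of one gene without cleavage and polyadenylation and continues into the next gene on the same strand, after which the spliceosome can join exons of both. Fusion labels also arise from rearranged DNA, from joining of separate RNAs, from template switching during cDNA synthesis, and from annotations that list exons of one locus under several gene names. Long reads show the joined exons in a single molecule but do not by themselves separate these sources.

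The combinations that could be placed joined genes of one chromosome. RefSeq (GRCm38.p6, another build than the files', so used only for names and gene order) held both genes of 343 of the 480 combinations of 2 genes, and all 343 pairs lay on 1 chromosome. Of these, 229 pairs (66.8%) were next to each other, 66 had 1 or 2 genes between them, 25 overlapped and 23 had 3 or more genes between them, with a maximum of 128. Strand was known for both genes in 209 pairs. In 208 of them (99.5%) both genes ran in the same direction, against 46.4% of 27005 pairs of RefSeq neighbours with known strands. These 208 combinations held 30.3% of the fusion reads. The exception was Apobec3/D730005E14Rik, an overlapping divergent pair with 2 reads in all. A splice chain read as a single alignment lies on 1 chromosome and 1 strand. Both the shared chromosome and the shared direction may thus follow from how the category is defined, and the sources named above were not tested.

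Promoter windows are shown for genes of combinations described below, mostly the upstream gene of the pair. Of 949 genes in the combinations, 614 had an entry in the RefSeq promoter table (GRCm38.p6). The windows are the 200 bases before the first start listed, and capitals mark matches, on either strand, to 4 motifs. These were GAAA, any 2 bases and GAAA, the interferon-stimulated response element (in 2.27% of 32851 windows of this length), TATAAA, the TATA box (9.96%), GGGCGG, the GC box (31.0%), and CCAAT, the CCAAT box (29.3%). Ifit2 and Ifit3 are shown because their pair is confined almost wholly to microglia libraries. Ifit2 lies upstream of Ifit3 (chr19:34550494-34550693 and chr19:34583329-34583528, both + strand).
Ifit2: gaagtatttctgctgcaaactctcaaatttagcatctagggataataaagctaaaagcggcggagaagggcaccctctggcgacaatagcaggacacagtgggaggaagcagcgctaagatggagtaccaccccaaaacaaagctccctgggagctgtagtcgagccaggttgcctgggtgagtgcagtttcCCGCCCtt
Ifit3: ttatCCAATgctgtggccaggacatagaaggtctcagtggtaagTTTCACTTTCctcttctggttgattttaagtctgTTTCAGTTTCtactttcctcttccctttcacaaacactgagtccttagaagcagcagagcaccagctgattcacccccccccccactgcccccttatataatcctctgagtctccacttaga
The window of Ifit3 held 2 matches to the response element, both on the reverse strand and starting at -156 and -122 from the start of the gene, while these letters were not in the window of Ifit2, for which the table lists another start whose window is not shown.

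Ndufa13 (chr8:69902021-69902220, - strand) is the upstream gene of a pair that was detected in neuron libraries alone, and Ube2m (chr7:13038276-13038475, - strand) that of a pair read mainly in neuron and astrocyte cells. Fabp7 (chr10:57784723-57784922, + strand) belongs to the combination found in most libraries.
Ndufa13: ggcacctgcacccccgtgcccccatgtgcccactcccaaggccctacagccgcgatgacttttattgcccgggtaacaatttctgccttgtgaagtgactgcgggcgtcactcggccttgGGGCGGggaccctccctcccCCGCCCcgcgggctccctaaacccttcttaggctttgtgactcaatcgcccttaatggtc
Ube2m: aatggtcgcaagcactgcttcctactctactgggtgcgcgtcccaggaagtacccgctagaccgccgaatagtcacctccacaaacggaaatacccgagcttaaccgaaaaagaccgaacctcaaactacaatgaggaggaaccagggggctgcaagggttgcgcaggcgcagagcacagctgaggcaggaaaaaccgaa
Fabp7: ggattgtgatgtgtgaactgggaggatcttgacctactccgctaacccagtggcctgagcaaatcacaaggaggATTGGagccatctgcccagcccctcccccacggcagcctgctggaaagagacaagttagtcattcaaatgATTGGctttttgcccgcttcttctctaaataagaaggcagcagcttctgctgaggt
Ndufa13 held 2 GC boxes and Fabp7 2 CCAAT boxes. The window of Ube2m, the first of 3 starts listed, held none of the 4 motifs.

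Most fusion isoforms were found in a single library. Of the 768 isoforms, 699 (91.0%) had reads in 1 library, against 64.5% of all isoforms in the table, and none had reads in all 18. Such shares differed widely between categories and were lowest in full-splice matches. They were 82.9% in isoforms with splice sites outside the catalogue and 83.2% in the category antisense. Every isoform of the categories intergenic and genic was in 1 library, so this trait was not particular to fusion isoforms. Fusion isoforms of 1 library held 56.6% of the fusion reads. No isoform was found in more than 7 libraries. Among combinations, 347 (71.4%) occurred in 1 library, with a median of 3 reads, and 139 in 2 or more libraries, with a median of 11 reads. Combinations of 1 library held 22.7% of the fusion reads.

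**Figure D1:**
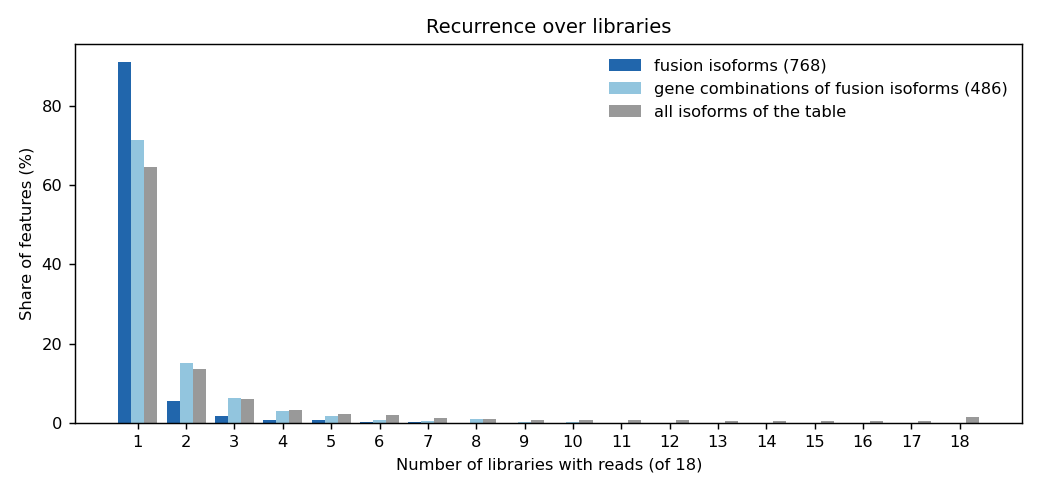
Share of features (y axis, %) by the number of libraries in which they had reads (x axis, of 18), for fusion isoforms, gene combinations of fusion isoforms and all isoforms of the table. Of the fusion isoforms 91.0% were in 1 library, of the combinations 71.4%, and no combination reached more than 10 libraries.

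Counts were low for most combinations: 157 had 2 reads in all and 375 had under 10, while 65 had 20 or more. Of those 65, 18 were in 1 library. The 12 combinations with most reads held 63.5% of the fusion reads, and the first alone held 28.7%. There were 13 combinations in 6 or more libraries, led by Fabp7/Smpdl3a in 10.

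At least 1 predicted gene was part of 246 combinations (50.6%), which carried 64.4% of the fusion reads, and the other 240 joined named genes only. Isoforms marked as retaining an intron made up 13.7% of fusion isoforms and 13.8% of all isoforms, and 23.5% of fusion reads against 2.08% of all reads. Full-splice matches, with 85.2% of all reads, had 0 isoforms so marked. The share of reads was 29.0% in isoforms with new combinations of known splice sites. It was 15.8% in isoforms with splice sites outside the catalogue, so the fusion share lay between these categories. One isoform of G530011O06Rik/Gm15726 marked as intron-retaining held 1674 reads.

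The order of names in a label did not carry over between libraries. In 91 combinations both orders were present, and these held 69.9% of the fusion reads. Of 780 combinations counted once in each library with reads, 323 belonged to these 91, and 2 of the 323 had both orders in the same library. Fabp7_Smpdl3a was the label in 5 libraries and Smpdl3a_Fabp7 in 5 others, and both fractions and both cell types of this combination carried both. Orders were therefore merged in all that follows.

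Fusion reads made up 0.0444% to 0.272% of a library. In astrocyte cells the share was 0.272%, 0.0444% and 0.0659%, and in astrocyte sEVs 0.0510%, 0.0697% and 0.0826%. In microglia cells it was 0.0983%, 0.0847% and 0.0850%, and in microglia sEVs 0.225%, 0.175% and 0.266%. In neuron cells it was 0.0910%, 0.150% and 0.108%, and in neuron sEVs 0.106%, 0.0857% and 0.0851%. All 3 microglia sEV libraries lay above all 3 microglia cell libraries, the other 2 cell types overlapped between fractions, and astrocyte cells replicate 1 stood apart, with 77.0% of its fusion reads from Gm7435/Rcn2.

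The shares averaged 0.222% ± 0.0455 in microglia sEVs and 0.0893% ± 0.00777 in microglia cells (SD, n = 3), a difference of 0.133 percentage points (exact two-sided permutation test, p = 0.10, the smallest that 3 against 3 allows, 0.30 after Benjamini-Hochberg adjustment over the 3 cell types). The difference of sEVs from cells was -0.0597 percentage points in astrocytes (exact p = 0.90) and -0.0242 in neurons (exact p = 0.20). Averaged over the 3 cell types it was 0.0162 percentage points (exact permutation of fraction within cell types, p = 0.65). Leaving out astrocyte cells replicate 1 turned the astrocyte difference to 0.0126.

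Microglia owed most of their share to 1 combination. G530011O06Rik/Gm15726 held 60.2% to 85.2% of the fusion reads of every microglia library. Without it and Gm7435/Rcn2, the share was 0.0280% ± 0.00536 in microglia cells, 0.0576% ± 0.0116 in astrocyte cells and 0.116% ± 0.0303 in neuron cells (n = 3 each), and the 3 groups did not overlap. Each of these pairs of cell types reached the smallest exact p of 0.10. The 2 combinations were picked for their many reads in these same libraries, and leaving them out was not planned. It lowers microglia cells and astrocyte cells replicate 1 by construction, so the separation is a description and not support for a difference. In sEVs the same shares were 0.0729% ± 0.0418 for microglia, 0.0678% ± 0.0159 for astrocytes and 0.0918% ± 0.0111 for neurons, and microglia overlapped both others.

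**Figure D2:**
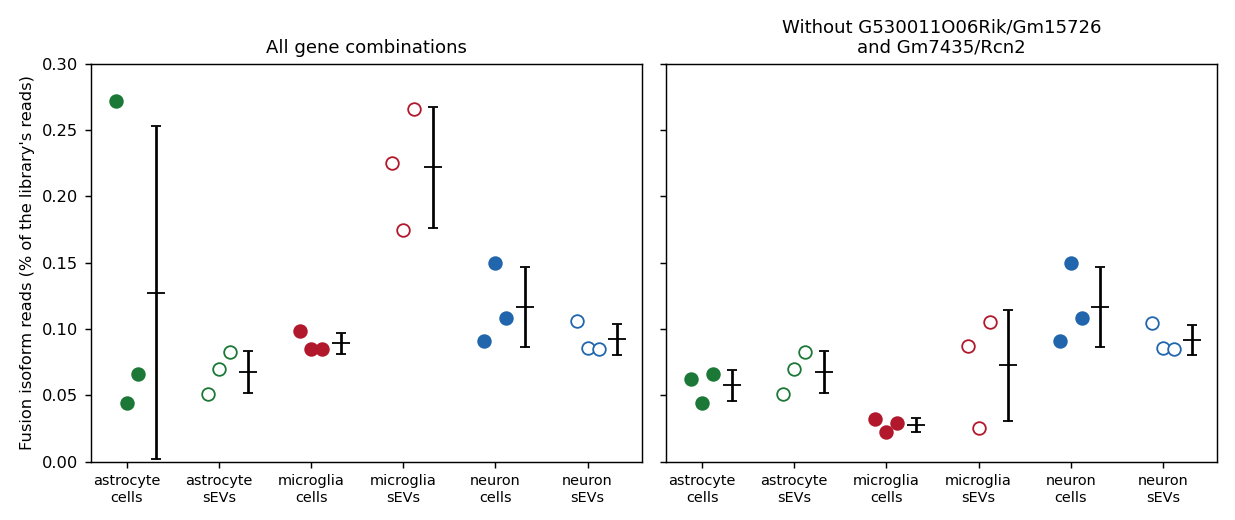
Reads of fusion isoforms as a percentage of the library's reads (y axis) in the 6 groups (x axis), with all combinations on the left and without the 2 combinations with most reads on the right; points are libraries (filled cells, open sEVs) and the bar is the mean with its SD. Microglia sEVs sit highest on the left, at 0.222% on average, and fall to 0.0729% on the right.

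Over all fusion reads, none of the 6 comparisons between cell types (3 in cells, 3 in sEVs) passed adjustment: the exact two-sided p was 0.10 for all 3 pairs in sEVs, 0.20 after adjustment over the 6 pairs. In cells the raw exact p-values were 0.20 for neuron against microglia and 1.00 for the other pairs.

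The number of combinations per library also differed with the cell type. It was 12, 24 and 22 in microglia cells and 16, 17 and 29 in microglia sEVs, against 63, 39 and 62 in astrocyte cells, 31, 42 and 57 in astrocyte sEVs, 67, 76 and 71 in neuron cells and 57, 48 and 47 in neuron sEVs. Every microglia library had fewer combinations than every library of the other types. At the depth of the smallest library the expected numbers were 18.7 ± 6.0 in microglia cells, 52.0 ± 12.2 in astrocyte cells and 69.9 ± 4.31 in neuron cells (n = 3 each), so the order of these means held at equal depth. Microglia cell libraries also held fewer isoforms of every category together, 11543 to 15235 against 19527 to 21853 in astrocyte and neuron cells. As a percentage of all isoforms of a library, fusion isoforms were 0.139 to 0.298 in microglia libraries and 0.215 to 0.421 in the others, which overlapped.

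Fusion reads were also set against the reads of the genes they join. For 285 combinations both genes had reads under their own labels, 557 genes in all. Per 1000 own-label reads of these genes, fusion reads numbered 17.9, 23.5 and 21.7 in neuron cells and 12.8, 12.3 and 5.02 in neuron sEVs, which did not overlap (exact p = 0.10, the smallest possible). They numbered 2.32, 0.946 and 2.16 in microglia cells and 7.54, 1.30 and 8.17 in microglia sEVs. Astrocyte cells had 40.9, 5.90 and 9.46 and astrocyte sEVs 6.14, 9.66 and 9.29. Over the 3 cell types the mean difference of sEVs from cells was -5.84 per 1000 (exact stratified permutation, p = 0.17).

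Combinations were compared between cells and the sEVs of the same type. Astrocyte cells had 135 and astrocyte sEVs 118, with 28 in common (20.7% and 23.7% of each). Microglia had 40 and 52, with 13 in common (32.5% and 25.0%), and neurons 165 and 127, with 26 in common (15.8% and 20.5%). Combinations were found only in the libraries of one type for 70.7% of those in astrocytes, 69.6% in microglia and 74.1% in neurons. Over all isoforms of the table, those in both fractions were 32.3% and 40.5% of the isoforms of astrocyte cells and sEVs, 41.3% and 43.6% in microglia and 29.5% and 36.5% in neurons. Of all isoforms in a type, 53.1% in astrocytes, 54.9% in microglia and 58.9% in neurons were in that type alone. For fusion isoforms counted one by one, those in both fractions were 6.43% and 8.03% in astrocyte cells and sEVs. In microglia they were 18.8% and 16.2%, and in neurons 4.91% and 6.63%. Of the fusion isoforms in a type, 91.2% in astrocytes, 92.9% in microglia and 92.6% in neurons were in that type alone. Fusion combinations have lower counts than the table as a whole and sum several isoforms, so these shares are set side by side without a test. Because 157 combinations had 2 reads in all, absence from the other libraries was often not detectable at this depth.

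Among the 139 combinations in 2 or more libraries, 64 stayed within 1 cell type (23 astrocyte, 12 microglia and 29 neuron) and 79 had reads in both cells and sEVs. In all 3 cell types 9 were found, among them Nxf1/Tmem223, Gm16973/Pspc1 and Rbm7/Rexo2. With 20 or more reads and at least 95% of them in one cell type, 11 combinations were astrocytic, 9 microglial and 18 neuronal, of which 2, 7 and 4 were in 3 or more libraries of that type. Of the 65 with 20 or more reads, 18 were in 1 library and so in one cell type by default. The same shares over all features at these minimums were not computed, so these counts do not show specificity particular to fusion isoforms.

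**Figure D3:**
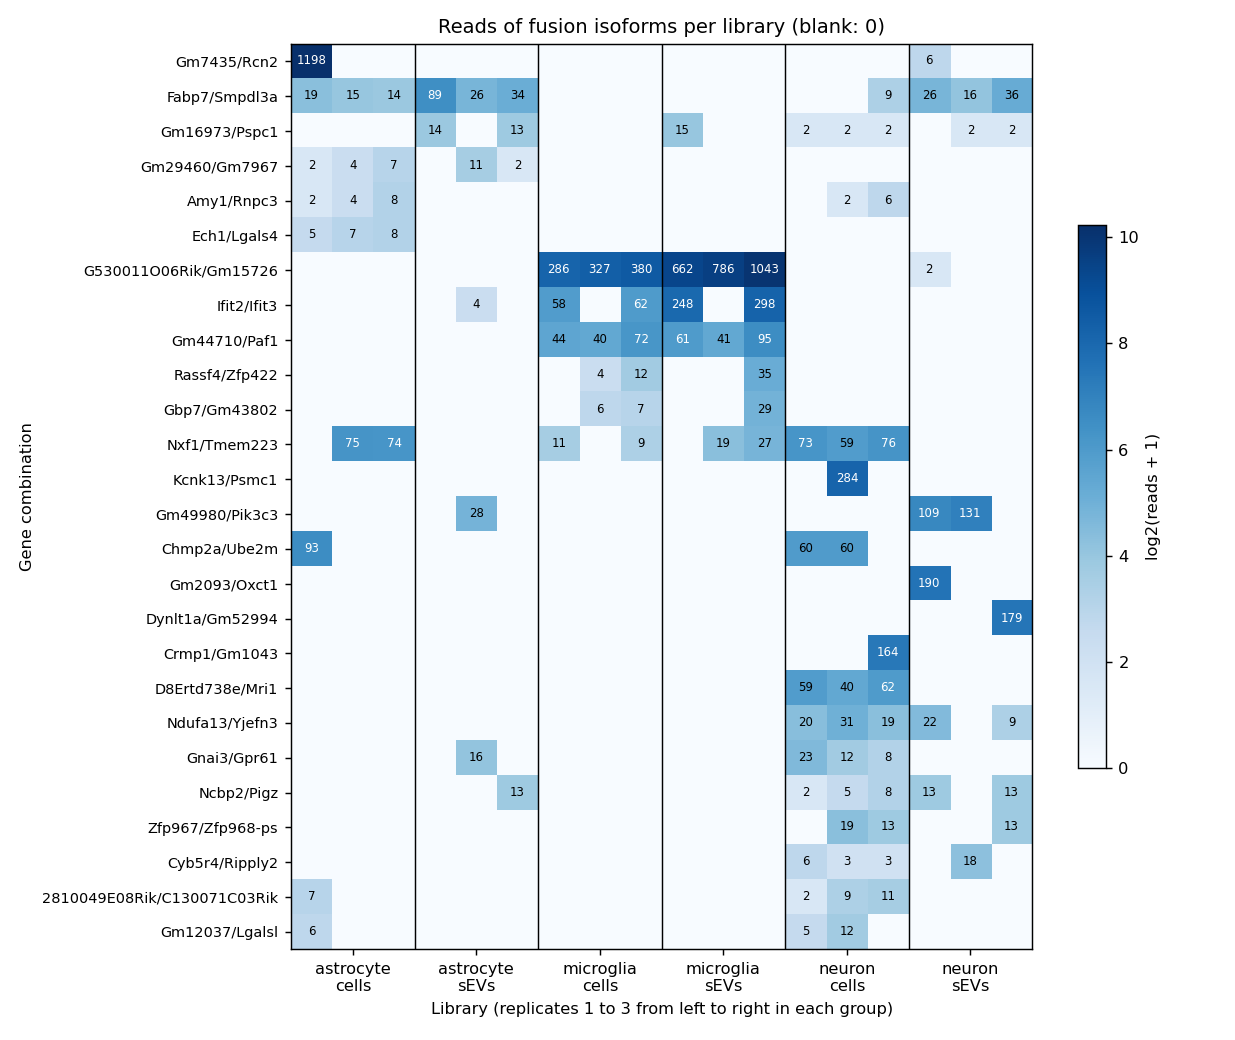
Reads of fusion isoforms in each of the 18 libraries (x axis, 3 replicates per group) for the combinations described in the text (y axis), coloured by log2(reads + 1) with the count printed and blanks for 0. G530011O06Rik/Gm15726 and Gm44710/Paf1 fill all 6 microglia libraries, D8Ertd738e/Mri1 the 3 neuron cell libraries, and Gm7435/Rcn2, with 1198 reads, lies in a single astrocyte library.

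Only 13 of the 486 combinations passed the filter on low counts and were tested, among 8185 gene features. A combination confined to one group could pass the filter only through that group, so the counts below describe these 13 and are not support for a pattern over all members. Calls are at an adjusted p under 0.05 (edgeR), and the percentage in brackets is the share of all 8185 features called. For sEVs against cells, 1 of 13 was called in astrocytes (20.3%), 0 in microglia (11.9%; 0 at an unadjusted p under 0.05, and 1 by DESeq2) and 4 in neurons (31.5%), and 2 for the mean of the 3 differences (34.0%). For one cell type against the other cells, 1 was called for astrocytes (15.9%), 4 for microglia (42.5%) and 4 for neurons (27.4%). For sEVs of one type against the other sEVs, 2 were called for astrocytes (20.0%), 5 for microglia (50%) and 3 for neurons (38.8%). By edgeR 0 interactions of cell type and fraction were called (3.95%), with 2 at an unadjusted p under 0.05 and 1 by DESeq2.

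G530011O06Rik/Gm15726 joined 2 predicted genes and had more reads than any other combination. G530011O06Rik is listed on both X and Y in RefSeq, so the copy read here is uncertain. It had 286, 327 and 380 reads in microglia cells and 662, 786 and 1043 in microglia sEVs, and otherwise 2 reads in neuron sEVs replicate 1. Its level was 903 ± 29.3 CPM (counts scaled to 1000000 after TMM normalization) in microglia cells, at least 201-fold above the other cells (n = 3 and 6, adjusted p = 7.66e-09), and 1480 ± 261 in microglia sEVs. The 2 microglial groups did not overlap in counts, but the difference did not pass the test (log2 0.71, adjusted p = 0.22). G530011O06Rik under its own label had 19 to 76 reads in the microglia libraries, so the joined label held 93.9% of the reads of both.

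Gm44710/Paf1 was read in all 6 microglia libraries and in no other. Paf1 is a subunit of a complex that travels with RNA polymerase II during elongation. The combination had 44, 40 and 72 reads in microglia cells and 61, 41 and 95 in microglia sEVs. Its level was 139 ± 25.8 CPM in microglia cells, at least 31.1-fold above the other cells (adjusted p = 3.27e-06). In sEVs it was 115 ± 38.6, at least 22.6-fold above the other sEVs (adjusted p = 4.24e-06). Paf1 under its own label had 0, 4 and 2 reads in microglia cells and 0, 0 and 8 in their sEVs, against 6 to 97 in the other 12 libraries. With fusion and own-label reads of both genes summed, microglia cells differed from the other cells by 0.52 on the log2 scale (adjusted p = 0.24), which did not pass.

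Ifit2/Ifit3 joins 2 neighbouring antiviral genes induced by interferon. It had 58, 0 and 62 reads in microglia cells, 248, 0 and 298 in microglia sEVs, and 4 in astrocyte sEVs replicate 2. Replicate 2 was at 0 in both microglial fractions although Ifit2 had 3818 and 6059 reads there under its own label. Microglia cells averaged 109 ± 96.8 CPM, at least 24.3-fold above the other cells (adjusted p = 0.0042), which DESeq2 did not call (adjusted p = 0.096). It was also called higher in microglia sEVs than in the other sEVs, again not by DESeq2 (adjusted p = 0.094). In microglia the fusion held 2.19% of the reads of the combination and Ifit2 together. Rassf4/Zfp422 had 4 and 12 reads in microglia cells replicates 2 and 3, 35 in microglia sEVs replicate 3 and 0 elsewhere. Gbp7/Gm43802, with a gene of an interferon-inducible guanylate-binding protein, had 6, 7 and 29 reads in the same 3 libraries.

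Fabp7/Smpdl3a was the most widespread combination. Fabp7 encodes the brain fatty acid-binding protein of radial glia and astrocytes, and Smpdl3a a phosphodiesterase related to acid sphingomyelinase. It had 19, 15 and 14 reads in astrocyte cells, 89, 26 and 34 in astrocyte sEVs, 0, 0 and 9 in neuron cells and 26, 16 and 36 in neuron sEVs. All 6 microglia libraries were at 0. Astrocyte cells, at 22.6 ± 4.05 CPM, lay above the other cells (adjusted p = 0.020), and astrocyte sEVs, at 71.4 ± 37.7, were called against the other sEVs, at 23.5 on average (adjusted p = 0.0085), although they overlapped neuron sEVs.

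In neurons Fabp7/Smpdl3a was 9.54-fold higher in sEVs (47.0 ± 15.5 CPM) than in cells (4.92 ± 8.53, adjusted p = 0.037), and neither group overlapped the other. The call was lost when 1 of 9 libraries was left out (any astrocyte cell library, astrocyte sEVs replicate 2, or any neuron library but neuron cells replicate 3), with an adjusted p of 0.055 to 0.11. The log2 difference of 3.22 ranged from 2.63 (without neuron cells replicate 2) to 7.76 (without neuron cells replicate 3, which holds all 9 reads of neuron cells). The reads of Fabp7 alone moved in the same direction (log2 1.24, adjusted p = 0.0072), and those of Smpdl3a in the opposite one (log2 -2.81, adjusted p = 0.00041). As a percentage of Fabp7 reads, the fusion stood at 5.04 ± 0.777 in neuron sEVs, 1.29 ± 2.24 in neuron cells, 3.31 ± 1.56 in astrocyte sEVs and 2.24 ± 0.592 in astrocyte cells (n = 3 each). Neuron libraries also carried astrocyte markers, at the levels given above, and the part of these in the combination was not tested.

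Nxf1/Tmem223 crossed all 3 cell types. Nxf1 is the main export receptor of mRNA, and Tmem223 a mitochondrial membrane protein. It had 0, 75 and 74 reads in astrocyte cells, 73, 59 and 76 in neuron cells, 11, 0 and 9 in microglia cells and 0, 19 and 27 in microglia sEVs, with 0 in all astrocyte and neuron sEVs. It was called lower in sEVs of neurons, at least 19.8-fold below 110 ± 17.8 CPM in cells (adjusted p = 0.010), and of astrocytes, at least 14.9-fold below 69.5 ± 60.2 (adjusted p = 0.019). The astrocyte call was lost without astrocyte cells replicate 3 (adjusted p = 0.052) or astrocyte sEVs replicate 3 (0.051). In microglia sEVs it stood at least 5.31-fold above the other sEVs (adjusted p = 0.0058), although replicate 1 was at 0 like the other sEVs.

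Tmem223 under its own label was read mainly in libraries without the fusion. Astrocyte cells replicate 1 had 77 reads of Tmem223 and no fusion reads, while replicates 2 and 3 had none of Tmem223. Astrocyte sEVs had 71, 27 and 52 reads of Tmem223. Neuron sEVs had 115 in replicate 1 and 152 in replicate 3, and replicate 2 had 95 reads under the joined label in the category full-splice match. With all reads of both genes summed, sEVs and cells differed by -0.66 in astrocytes (adjusted p = 0.13) and by 0.42 in neurons (adjusted p = 0.30) on the log2 scale. The combination was also called lower for the mean of the 3 differences, where the sum gave -0.42 (adjusted p = 0.068). For microglia sEVs against the other sEVs the sum gave 0.54 (adjusted p = 0.082). None of these sums passed.

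D8Ertd738e/Mri1 was read in neuron cells alone. Mri1 is an enzyme of methionine salvage. It had 59, 40 and 62 reads in neuron cells and 0 in the other 15 libraries. Its level of 85.3 ± 21.3 CPM was at least 13.6-fold above the other cells (adjusted p = 0.0010) and at least 15.4-fold above neuron sEVs (adjusted p = 0.0039), a call DESeq2 did not make in either comparison (adjusted p = 0.075 and 0.13). D8Ertd738e had 5, 6 and 0 reads of its own in neuron cells, against 266, 198 and 294 in neuron sEVs and 48 to 65 in astrocyte cells. With all reads summed, neuron sEVs were higher than cells, by 2.19 on the log2 scale (adjusted p = 1.68e-05), the opposite direction. Neuron cells then differed from the other cells by 0.30 (adjusted p = 0.41), which did not pass.

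The other combinations called in neuron cells numbered 3. Ndufa13/Yjefn3, whose first gene encodes a subunit of respiratory complex I, had 20, 31 and 19 reads in neuron cells, 22, 0 and 9 in neuron sEVs and 0 elsewhere (at least 5.85-fold above the other cells, adjusted p = 0.0047). Yjefn3 had 16 reads of its own in neuron libraries, so the joined label held 86.3% of the reads of both. Gnai3/Gpr61, a G protein subunit gene and its neighbouring orphan receptor, had 23, 12 and 8 reads in neuron cells and 16 in astrocyte sEVs replicate 2 (adjusted p = 0.023). Gpr61 under its own label had 18, 22 and 9 reads in neuron cells and 0 in all other libraries. With all reads of both genes summed, neuron cells differed from the other cells by -0.57 on the log2 scale (adjusted p = 0.23). This was the opposite direction and did not pass.

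Zfp967/Zfp968-ps had 19 and 13 reads in neuron cells replicates 2 and 3 and 13 in neuron sEVs replicate 3 (adjusted p = 0.042). Without 1 library of neuron cells, the adjusted p was 0.12 (replicate 2) or 0.095 (replicate 3), and 0.071 (replicate 1) or 0.053 (replicate 2) for Gnai3/Gpr61. Leaving out any 1 astrocyte or microglia cell library gave 0.073 to 0.077 for Zfp967/Zfp968-ps. Zinc finger genes of such clusters are near-identical copies, so the counting between them is uncertain. DESeq2 called neither combination (adjusted p = 0.35 and 0.25). With all reads of both genes summed, Zfp967/Zfp968-ps did not pass in neuron cells (log2 6.30, adjusted p = 0.051).

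Besides Fabp7/Smpdl3a, 2 combinations were called higher in sEVs. Gm49980/Pik3c3 had 109, 131 and 0 reads in neuron sEVs and 28 in astrocyte sEVs replicate 2, and the cells had none. Pik3c3 makes the lipid signal that starts autophagosomes and sorts endosomes. In neuron sEVs the combination was at 152 ± 140 CPM, at least 32.1-fold above neuron cells (adjusted p = 0.040), but replicate 3 had none and carried 1916 reads of Gm49980 under its own label. Without any 1 neuron library other than neuron sEVs replicate 3 the adjusted p was 0.074 to 0.10, and DESeq2 did not make the call (adjusted p = 0.16). Gm16973/Pspc1, with a paraspeckle protein gene, had 14, 0 and 13 reads in astrocyte sEVs and 15, 0 and 0 in microglia sEVs. Neuron cells had 2 reads in each library and neuron sEVs 0, 2 and 2, a log2 difference of -0.30 (adjusted p = 0.96). The combination was called for the mean of the 3 differences (adjusted p = 0.035), but not by DESeq2 (adjusted p = 0.085). The sign of this mean turned with all reads of both genes summed (log2 -0.45, adjusted p = 0.63). This call was lost without any 1 of 14 libraries, with an adjusted p of 0.055 to 1.00, the highest without microglia sEVs replicate 1.

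Several other calls set one group against the mean of the other groups' log levels, in which a group at 0 weighs heavily. Fabp7/Smpdl3a was called lower in microglia cells, where it overlapped neuron cells, and in microglia sEVs (adjusted p = 0.027 and 0.00088). G530011O06Rik/Gm15726 was called lower in astrocyte sEVs, at 0, than in the other sEVs, of which neuron sEVs had 2 reads (adjusted p = 0.0012, and 1.00 without neuron sEVs replicate 1). For neuron sEVs against the other sEVs, Fabp7/Smpdl3a was called (adjusted p = 0.016) at 47.0 CPM, between astrocyte sEVs at 71.4 and microglia sEVs at 0. Gm49980/Pik3c3 stood at 152 against 9.05 CPM (adjusted p = 0.028) and Ndufa13/Yjefn3 at 17.5 against 0 (adjusted p = 0.0065), and both overlapped the other sEVs. Without astrocyte cells replicate 1 the call of Fabp7/Smpdl3a in astrocyte cells was lost (adjusted p = 0.061), as was that in microglia cells without any 1 microglia library (0.067 to 0.080) or without neuron cells replicate 3 (1.00). The call of Gm49980/Pik3c3 in neuron sEVs was lost without replicate 1 or 2 (0.065 and 0.089), and DESeq2 did not make it (adjusted p = 0.26).

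Large counts in a single library were common. Gm7435/Rcn2, with a gene of an endoplasmic reticulum calcium-binding protein, had 1198 reads in astrocyte cells replicate 1, 6 in neuron sEVs replicate 1 and 0 elsewhere. Kcnk13/Psmc1, with a proteasome ATPase gene, had 284 reads in neuron cells replicate 2 alone. Crmp1/Gm1043 had 164 in neuron cells replicate 3, Gm2093/Oxct1 190 in neuron sEVs replicate 1 and Dynlt1a/Gm52994 179 in neuron sEVs replicate 3. Chmp2a/Ube2m, of an ESCRT-III subunit and a neddylation enzyme, had 93 reads in astrocyte cells replicate 1 and 60 in each of neuron cells replicates 1 and 2.

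In such libraries the partner gene's own label was often low. Rcn2 had 87 reads of its own in astrocyte cells replicate 1 and 1067 and 1932 in the other replicates. Psmc1 had 22 in neuron cells replicate 2 against 252 and 242, and Chmp2a 13 in astrocyte cells replicate 1 against 121 and 98. In neuron cells Chmp2a had 8, 11 and 14 reads, and the third library had 56 reads under the joined label in another category.

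**Figure D4:**
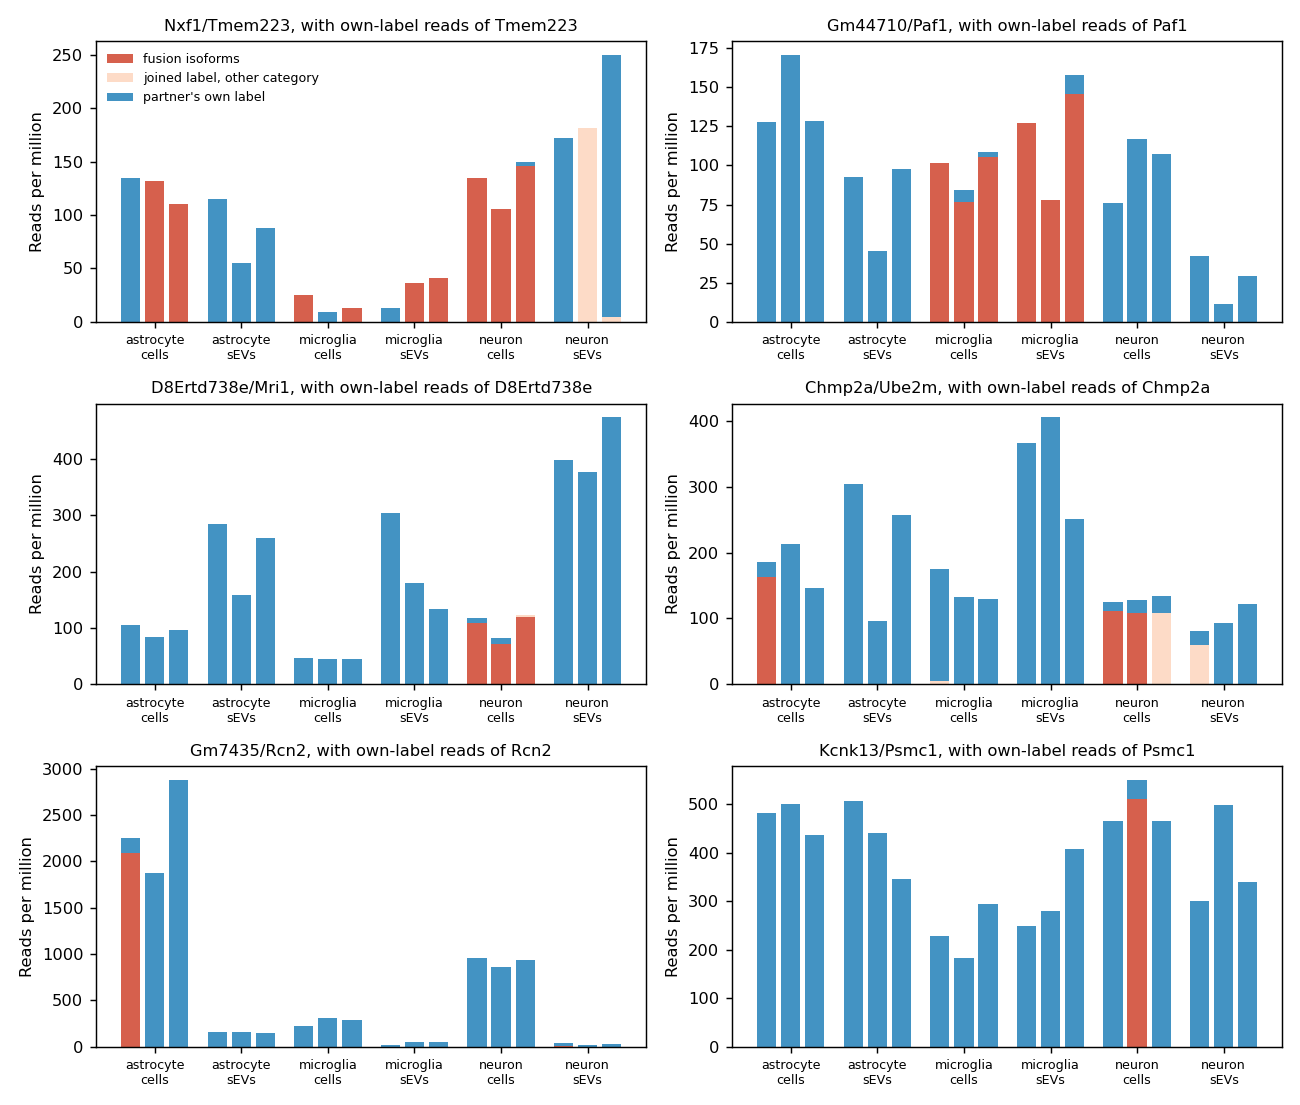
RPM (y axis) in each library (x axis, 3 per group) for 6 combinations, stacked as fusion isoforms, isoforms of the joined label in another category, and the named partner gene under its own label. The 6 were picked as examples of few own-label reads beside fusion reads, such as Psmc1 with 22 beside 284 in neuron cells replicate 2, and do not stand for all combinations.

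This was examined in 38 cases (29 combinations) with 20 or more fusion reads in a library, no fusion reads in at least 1 other library of the same group, and a partner gene of 20 or more RPM there. The better-read partner's own-label level was under 50% of that in the libraries without the fusion in 19 of 38 cases against a share of 15.6% of all genes of the same minimum level. The cases were chosen with the data in view and overlap in libraries, so no test was made. Their median own-label level was 50.9% of the others, and with the fusion reads added it was 111%. The sum lay between 50% and 200% of the others in 34 cases and the own label in 19. The exceptions included Gm49980/Pik3c3, whose sums were 5.52% and 8.09% in neuron sEVs, and Ifit2/Ifit3 in microglia cells replicate 3, at 16.3%.

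**Figure D5:**
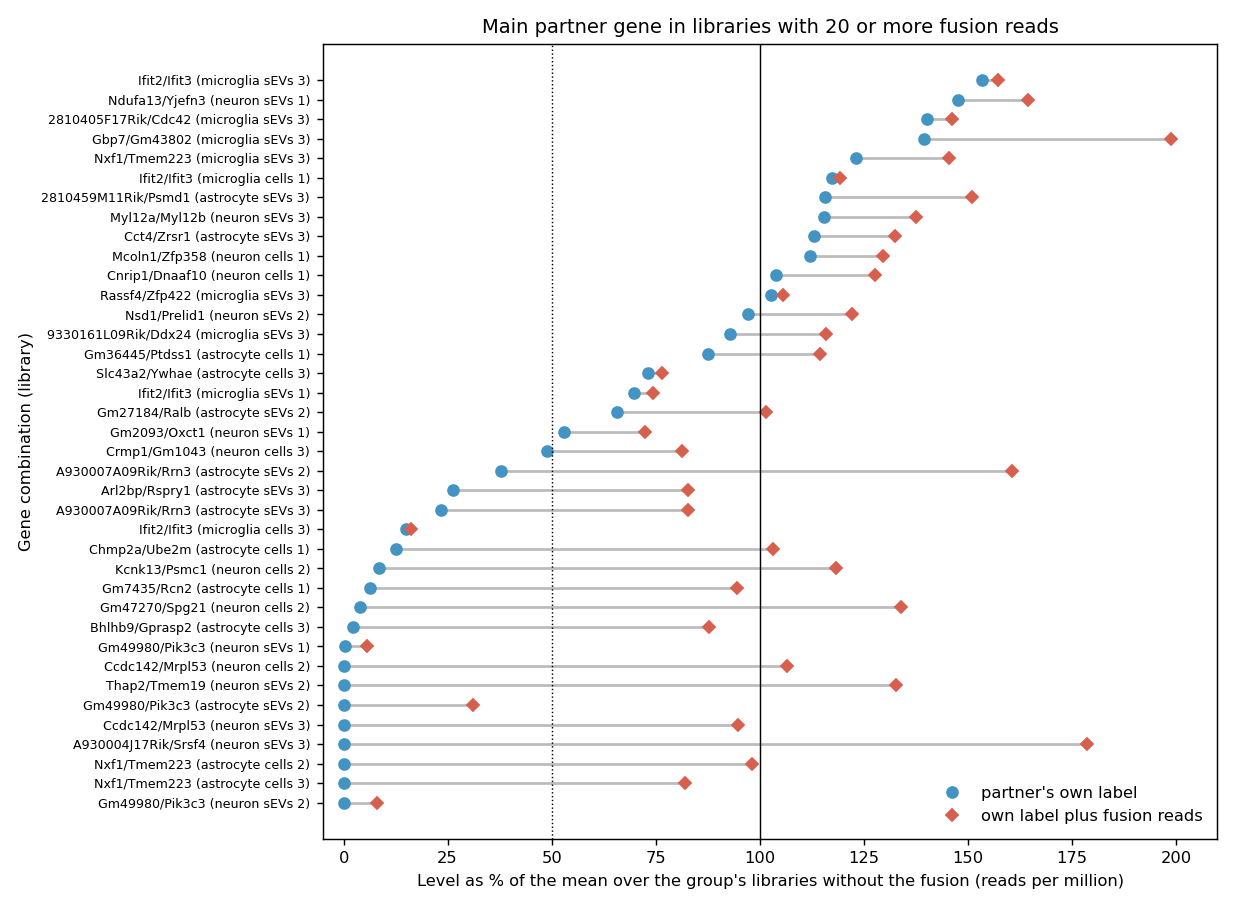
Level of the main partner gene in a library with 20 or more fusion reads, as a percentage of its mean level in RPM over the group's libraries without the fusion (x axis), for 38 cases (y axis); circles are the partner's own label, diamonds the own label plus fusion reads, the solid line 100% and the dotted line 50%. The circles have a median of 50.9% and the diamonds of 111%.

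Joined labels also occurred outside the fusion category. In other categories 121 isoforms with joined labels held 7562 reads, 88 of them full-splice matches, 21 incomplete-splice matches and 12 isoforms with splice sites outside the catalogue, and 22 of the fusion combinations had such isoforms too. When fusion, joined and own-label reads of both genes were summed, 9 of the 26 calls over the 10 comparisons above did not pass. The sum and the fusion reads had opposite signs in 4 of the 26.

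The other combinations that met the rule for naming had few reads. Cyb5r4/Ripply2 had 6, 3 and 3 reads in neuron cells and 18 in neuron sEVs replicate 2. In astrocyte libraries alone were Ech1/Lgals4, of a fatty acid oxidation enzyme and a galectin, with 5, 7 and 8 reads in astrocyte cells, and Gm29460/Gm7967, with 26 reads in 5 libraries. Amy1/Rnpc3, of salivary amylase and a minor spliceosome protein, had 2, 4 and 8 reads in astrocyte cells and 2 and 6 in neuron cells. The cells alone also held 2810049E08Rik/C130071C03Rik, with 29 reads over 4 libraries, and Gm12037/Lgalsl, with 23 over 3. Ncbp2/Pigz, of a cap-binding protein and a GPI-anchor enzyme, was tested with 54 reads in 6 libraries and was not called.

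Fewer single isoforms than combinations could be tested. Only 8 fusion isoforms passed the filter on low counts, against 13 combinations, and the share called over all isoforms is not given. Of these 8, 6 were called in at least 1 comparison: 3 of G530011O06Rik/Gm15726, 2 of Gm44710/Paf1 and 1 of Nxf1/Tmem223. The last had 353 reads in 7 libraries.

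Genes that end transcripts and remove aberrant ones were listed to describe the same libraries. Of 22 cleavage and polyadenylation genes, 20 were tested. By edgeR 0 were called in astrocyte and in microglia sEVs against cells (0 at an unadjusted p under 0.05 in both, and 1 and 0 by DESeq2), while in neurons 3 of 20 were lower and 0 higher (6 were called by DESeq2), beside 31.5% of all features called. The median over the list in neurons was -1.26 on the log2 scale, against -0.10 over all features. Cpsf3, the endonuclease that cuts the transcript, was at 26.0 ± 5.28 CPM in neuron sEVs and 105 ± 15.5 in neuron cells (n = 3 each, log2 -2.02, adjusted p = 0.0059). Fip1l1 (log2 -2.62, adjusted p = 0.012) and Cstf2t (log2 -1.63, adjusted p = 0.046) fell as well.

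Of 29 termination and elongation genes, 16 were tested: 0 were called by edgeR in astrocytes (2 at an unadjusted p under 0.05, 1 by DESeq2), 1 was higher in microglia sEVs (11.9% of all features called), and in neuron sEVs 2 were higher and 4 lower (31.5% of all features called). Xrn2, the exonuclease that releases the polymerase after cleavage, was at 43.7 ± 1.72 CPM in neuron cells and had 0 reads in the 3 neuron sEV libraries (adjusted p = 5.8e-05). Rprd1a rose in neuron sEVs, to 218 ± 27.5 from 24.4 ± 8.94 (adjusted p = 0.028). Of 15 nonsense-mediated decay genes, 7 were tested: 0 were called by edgeR in astrocytes (2 at an unadjusted p under 0.05, 1 by DESeq2), 1 was higher in microglia sEVs and 2 were lower in neuron sEVs, Smg9 and Eif4a3, beside the same shares of all features. Neuron sEV libraries had fewer fusion reads per partner read than neuron cells, as given above, and the part of these genes in that was not tested.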

How the data were processed

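Counts per isoform were deposited by the authors as raw whole numbers; minimap2 and GRCm39 are named in the submitters' processing notes, and the isoform caller, annotation and filters are named in none of the sources used here. Per the labels' protocols, cDNA was reamplified for 10 cycles and no molecular identifiers are mentioned, so limits cover counting error only. A fusion feature summed all fusion isoforms of a gene combination; other isoforms were summed per gene label. Merging the 2 orders of a label was decided after the data were seen. One edgeR 4.0.16 quasi-likelihood fit of 18 libraries (R 4.3.3, filterByExpr by group, TMM, Benjamini-Hochberg over 8185 features) gave 11 comparisons; CPM use TMM-scaled totals, RPM plain totals. A fold against a group at 0 used 3 reads per library. Shares were compared by exact permutation (Python 3.11.15, scipy 1.17.1). The fit was tested on simulated data. Same-numbered cell and sEV libraries did not deviate together (correlations -0.082 to 0.082), so numbers were not taken as pairs. No 2 replicates agreed within sampling noise (lowest chi-square per degree of freedom 5.26).

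Named are the 12 combinations with most reads, any in all 18 libraries (there were none), the 6 called with the smallest p per comparison and direction, up to 5 per cell type or fraction with 20 or more reads and at least 95% of them there in at least 3 libraries, and list genes as examples; others were named after their values were seen. The members, lists and rules were chosen with earlier results of these data known. Alternatives were DESeq2 1.42.0, plain library totals, no filter, separate fits, a replicate block, leaving out libraries, other denominators and minimums, and unmerged labels.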

Additional observations from a re-analysis of the deposited data

Results flagged for a closer look

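The difference in the share of fusion reads between sEVs and cells was -0.157 percentage points in neurons relative to microglia. It was flagged because its unadjusted p was under 0.05. The test permuted cell types within each fraction and was chosen after the data were seen (400 exact assignments, p = 0.010, 0.030 after adjustment over 3 pairs of cell types). Such a permutation assumes no difference between the cell types in either fraction. A small p can therefore also follow from a plain difference between cell types, and it does not measure the difference of the differences alone. The share was higher in sEVs than in cells in microglia, with no overlap, and lower on average in neurons, where the libraries overlapped. For the other pairs of cell types the value was 0.192 for microglia minus astrocyte (exact permutation, p = 0.050, 0.075 after adjustment) and 0.0354 for neuron minus astrocyte (exact permutation, p = 0.76). Without the 2 combinations with most reads the value was -0.0696 (exact permutation, p = 0.14, 0.35 after adjustment).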

How the results depend on the processing

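For the share of fusion reads, the astrocyte difference of sEVs from cells turned to 0.00395 with isoforms of 2 or more libraries, 0.00361 with neighbouring genes only and 0.0102 without the 2 combinations with most reads. In cells, microglia minus astrocyte turned to 0.0634 and neuron minus microglia to -0.0393 with isoforms of 2 or more libraries. Neuron minus astrocyte in cells turned to 0.0241 with those isoforms, 0.298 as log2 of the share, 0.0239 with neighbouring genes only and 0.0589 without the 2 combinations with most reads. Neuron minus microglia in sEVs turned to 0.0189 without them. The mean number of fusion isoforms per library was 49.2, and 16.2 with entries of 5 or more reads.

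Combinations called in sEVs against cells numbered 10 in astrocytes and 15 in neurons with no filter on low counts, 2 and 2 without the libraries rich in Gm42047 (astrocyte sEVs replicate 1 and neuron sEVs replicate 1), 0 and 0 with isoforms in place of combinations, and 0 and 2 with label orders kept apart. DESeq2 called 2 in neurons. The numbers tested differed: 486 combinations with no filter, 13 with DESeq2 or library totals, and 19 without the Gm42047-rich libraries. They were 8 with isoforms, 9 with label orders kept apart and 4 with only the 2 microglia groups fitted. Counts from settings with unlike numbers tested are not comparable, and the shares over all features are not given for them. In microglia 1 was called with DESeq2, with library totals or with only the 2 groups fitted. For the mean of the 3 differences 1 was called with DESeq2, isoforms or label orders kept apart. For one cell type against the others, no filter gave 8, 10 and 13 in astrocyte, microglia and neuron cells and 9, 18 and 20 in their sEVs. In astrocyte cells DESeq2 called 3, and leaving out both Gm42047-rich libraries gave 2. Isoforms gave 0 in astrocyte cells, neuron cells, astrocyte sEVs and neuron sEVs, and label orders kept apart gave 0 in astrocyte cells, 1 in neuron cells and 0 in astrocyte sEVs. The interaction gave 1 with DESeq2 or library totals and 3 with no filter. Summed over the 3 comparisons of sEVs with cells, cleavage and polyadenylation genes gave 7 calls by DESeq2. Of these, 1 was in astrocytes, 0 in microglia and 6 in neurons, while edgeR made 3 calls, all in neurons. The cause was not tested.

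Leaving out 1 library gave share differences of -0.101 to 0.0126 in astrocytes, 0.111 to 0.156 in microglia, -0.0370 to -0.00747 in neurons and 0.00239 to 0.0403 over the 3 types. Among cells it gave -0.0796 to 0.0342 for microglia minus astrocyte, -0.0525 to 0.0613 for neuron minus astrocyte and 0.0104 to 0.0399 for neuron minus microglia. Among sEVs the same differences were 0.132 to 0.178, 0.0161 to 0.0319 and -0.153 to -0.108, and fusion reads per 1000 partner reads differed by -7.99 to -2.15. With 1 library left out, 19 to 22 combinations were tested, against 13 in the main fit. Called combinations ranged over 0 to 2 (astrocytes), 0 to 0 (microglia), 2 to 3 (neurons) and 1 to 2 (mean) for sEVs against cells. They ranged over 0 to 2, 3 to 5 and 2 to 5 in astrocyte, microglia and neuron cells, 1 to 5, 5 to 8 and 3 to 6 in their sEVs, and 0 to 1 for the interaction. Calls of list genes were summed over the 3 comparisons of sEVs with cells, so a gene can count more than once. They numbered 2 to 4 (cleavage and polyadenylation), 5 to 9 (termination and elongation) and 2 to 4 (nonsense-mediated decay).

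With the replicate number as a block, 1 combination was called for the mean of the 3 differences, where Gm16973/Pspc1 was lost (adjusted p = 0.071), as was Zfp967/Zfp968-ps in neuron cells (0.064). Low counts limit most combinations: 375 of 486 had under 10 reads.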
